A study of Mus musculus with 6 samples.

Results

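Genes of MHC class I antigen presentation were compared between colonic cells with and without an active *Il11* reporter. The set held 10 genes, taken by their symbols from the tag counts. They were the heavy chains *H2-K1*, *H2-D1* and *H2-T23*, the light chain *B2m*, the peptide loading genes *Tap1*, *Tap2*, *Tapbp* and *Erap1*, the transactivator *Nlrc5*, and *Cd74*. All 10 were among the 20327 gene symbols counted in the libraries. *Cd74* encodes the invariant chain of MHC class II molecules and is not a component of the class I pathway, so its values are given apart from the others.

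The cells came from the colon of male C57BL/6 mice, 9 to 15 weeks old, that carried *Il11-Egfp*. In this bacterial artificial chromosome transgene the *Il11* promoter drives *Egfp*, and a single transgenic line was used. The mice drank water with 1.5% dextran sodium sulfate (DSS), which damages the colonic epithelium and causes colitis, for 5 days and then regular water, and the colon was taken on day 7. Cells negative for Ter119, CD45, CD31 and EpCAM, which mark erythroid, blood-derived, endothelial and epithelial cells, were sorted by EGFP into EGFP-positive and EGFP-negative cells (3 libraries per group, 3 mice). Both groups therefore carried the reporter and came from DSS-treated mice, and no untreated colon was compared. The EGFP-negative libraries held 1057170, 1078179 and 1169817 tags in replicates 1, 2 and 3, and the EGFP-positive libraries held 1046538, 1022851 and 1049048. Each tag is a read from near the 5′ end of a polyadenylated RNA. A count of 0 in a library allows up to 3 tags, or 2.56 to 2.93 CPM (tags per 1000000 tags of the library). The tags carried no molecular identifiers, so these floors cover counting error only.

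MHC class I molecules consist of a heavy chain, β2-microglobulin and a short peptide, and show peptides from inside the cell to CD8 T cells. The proteasome makes the peptides, TAP1 and TAP2 carry them into the endoplasmic reticulum, ERAP1 trims them there, and tapasin joins the transporter to the empty heavy chain. NLRC5 drives the promoters of most of these genes, and interferon-γ raises their expression in many cell types, fibroblasts among them.

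The comparison asks whether these genes are expressed differently in cells that express the *Il11* reporter. *Il11*, which checks the sort, had 28, 51 and 89 tags in EGFP-negative replicates 1, 2 and 3, and 1357, 732 and 2658 tags in the EGFP-positive ones. Its log2 fold change of EGFP-positive against EGFP-negative cells was 4.98 (SE 0.394; adjusted p = 1.01e-07 by the quasi-likelihood test of edgeR, Benjamini-Hochberg adjusted). The 3 EGFP-positive libraries were all above the EGFP-negative ones. In the transgene *Egfp* was inserted within *Il11*, so tags of reporter RNA may also have been counted under *Il11*, which was not tested. A gene was tested when at least 3 of the 6 libraries held at least 10 tags. Calling it took an adjusted p below 0.05 together with more than a 2-fold change. This fit did not pair the libraries by replicate number, and a fit blocked by that number was run as an alternative. Tests and intervals are from the unpaired fit unless the block or another setting is named. Among the members the block changed no call.

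Of the 10 genes, 9 were tested, and *Nlrc5* had too few tags. None of the class I pathway genes was called. By edgeR's quasi-likelihood test 0 of the 9 were called higher in EGFP-positive cells and 1, *Cd74*, was called lower. Among all 9334 tested genes 916 were called (9.81%), 321 of them higher (3.44%) and 595 lower (6.37%). At an unadjusted p under 0.05 the members again gave 0 higher and 1 lower, against 1135 higher (12.2%) and 1355 lower (14.5%) of all tested genes. DESeq2 called 0 in either direction, and edgeR's exact test called 0 higher and 1 lower. An adjusted p under 0.05 without a fold threshold held for 1450 of all genes (15.5%) and for 1 member. The groups did not overlap in normalized CPM (per 1000000 tags of tested genes, scaled by TMM factors) for 2 of the 9 members, *Erap1* and *Cd74*, against 2914 of all tested genes (31.2%). Over the 9 members the log2 fold change had a median of 0.09, and over all tested genes of -0.01. The count of genes called lower fell to 341 without EGFP-negative replicate 1 and to 355 without EGFP-negative replicate 2. In RNA from sorted bulk cells, fewer cells of a type and less RNA per cell cannot be told apart.

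For the 8 tested members other than *Cd74* the log2 fold changes ran from -0.23 to 0.53, with adjusted p from 0.289 to 0.926 by edgeR's quasi-likelihood test. The 95% interval of the fold change lay within 2-fold in either direction for 7 of these 8, the exception being *Tap1*. Missing the threshold does not show equal expression, and the intervals give the sizes of difference that these libraries left possible.

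**Figure D1:**
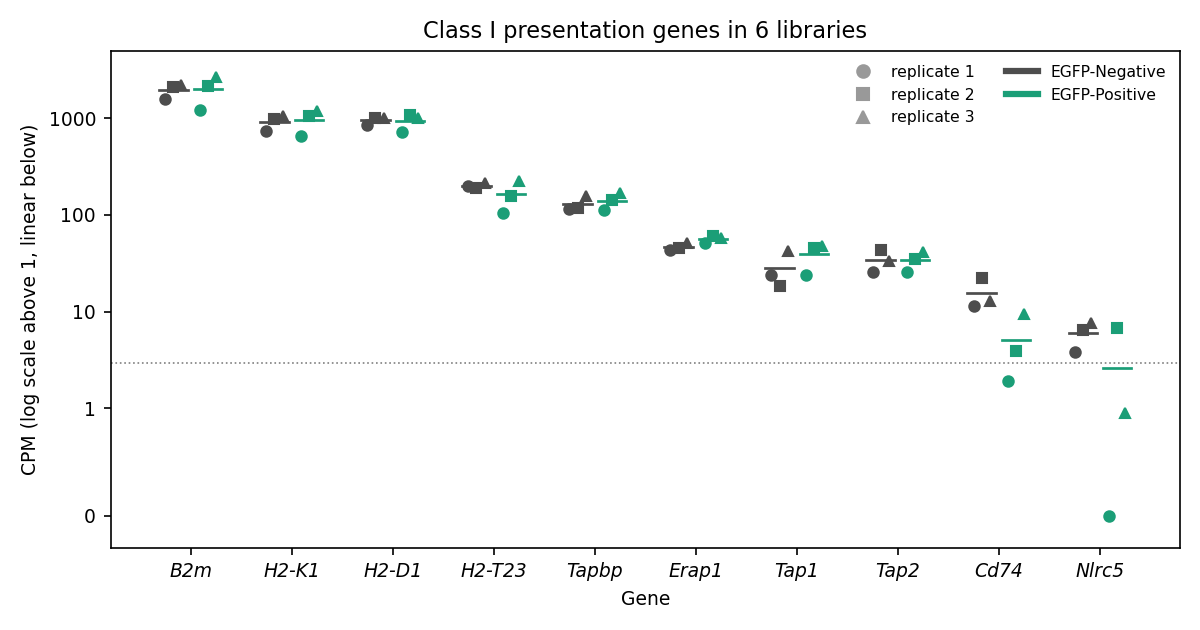
CPM of the 10 genes in each library, on an axis that is logarithmic above 1 and linear below, with EGFP-negative libraries in grey, EGFP-positive libraries in green, a symbol shape for each replicate number, a short line at each group mean and a dotted line at the highest floor of 3 tags (2.93 CPM). For *B2m*, *H2-K1*, *H2-D1* and *H2-T23* the 3 EGFP-positive libraries span the EGFP-negative ones, and for *Cd74* all 3 EGFP-positive libraries lie below them.

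*H2-K1* and *H2-D1* encode the classical heavy chains of C57BL/6 mice, which present peptides to CD8 T cells. *H2-K1* (chr17:33996017-34000347) had 773, 1060 and 1231 tags in EGFP-negative replicates 1, 2 and 3, and 679, 1078 and 1256 tags in the EGFP-positive ones. The groups overlapped, and replicate 1 held the fewest tags in each. On the normalized scale the means were 915.9 ± 154 CPM and 1004 ± 252 CPM (SD, n = 3). The log2 fold change was 0.13 (95% interval -0.28 to 0.55; edgeR, adjusted p = 0.735). For *H2-D1* (chr17:35262730-35267499) the EGFP-negative libraries held 908, 1081 and 1177 tags and the EGFP-positive ones 747, 1116 and 1049. Here too replicate 1 was lowest in both groups and the groups overlapped, with a log2 fold change of 0.04 (95% interval -0.33 to 0.40; edgeR, adjusted p = 0.926).

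*H2-T23* (chr17:36029773-36032855) encodes the heavy chain of Qa-1, a nonclassical molecule that binds receptors of natural killer and T cells. It had 210, 204 and 250 tags in the EGFP-negative libraries and 110, 162 and 238 in the EGFP-positive ones. In normalized CPM the EGFP-negative libraries lay close together, while EGFP-positive replicates 1 and 2 were below all of them and replicate 3 was above. The normalized means were 199 ± 6.62 and 169 ± 55.4 CPM (SD, n = 3), and the log2 fold change was -0.23 (95% interval -0.65 to 0.19; edgeR, adjusted p = 0.511).

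*B2m* (chr2:122147686-122153083), whose product pairs with every classical heavy chain, had 1668, 2285 and 2605 tags in EGFP-negative cells and 1268, 2207 and 2796 in EGFP-positive cells. The lowest and the highest of the 6 counts were both in the EGFP-positive group, and replicate 1 was again lowest on each side. The log2 fold change was 0.09 (95% interval -0.37 to 0.55; edgeR, adjusted p = 0.852). Within the EGFP-positive group the highest library exceeded the lowest by a ratio of 1.98 in normalized CPM, while the ratio of the group means was 1.06.

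Summed over the 28 class I H2 symbols of the count table, heavy chain tags came to 2391, 2956 and 2980.0 CPM in EGFP-negative cells and 1970.3, 3093 and 3251 CPM in EGFP-positive cells. This was 0.197% to 0.325% of all tags, and the groups overlapped. *H2-K1*, *H2-D1* and *H2-T23* together took 73.6% to 76.3% of the class I H2 tags in the 6 libraries. The number of *B2m* tags per class I H2 tag ran from 0.615 in EGFP-positive replicate 1 to 0.820 in EGFP-positive replicate 3, with means of 0.708 ± 0.0444 and 0.711 ± 0.103 (SD, n = 3) in EGFP-negative and EGFP-positive cells. *H2-K1* tags per *H2-D1* tag ran from 0.851 in EGFP-negative replicate 1 to 1.20 in EGFP-positive replicate 3.

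The H2 genes are close relatives, and a 5′ tag can be assigned to a gene only where their 5′ sequences differ. How tags that match several genes were counted is not given in the sources used here. In the GENCODE M21 transcripts of GRCm38, 12.1% of the 50-nucleotide windows in the first 300 nucleotides of the *H2-K1* transcripts also occurred in a transcript of another gene. The share was 5.88% for *H2-D1* and 0% for *H2-T23*. For 6 counted class I H2 symbols, named below, this reference held no transcript. Windows shared with them could be missed, so the shares given here, those of 0 among them, may be too low. Some annotated transcripts begin inside the gene, and only 5 of the 8 *H2-K1* transcripts held a start codon, so the first 300 nucleotides from the start codon were also searched, a choice made after seeing the data. There the shares were 4.38% for *H2-K1*, 13.9% for *H2-D1* and 21.5% for *H2-T23*. Over their aligned coding sequences *H2-K1* and *H2-D1* were 91.4% identical, with a longest identical run of 91 nucleotides, and *H2-K1* and *H2-T23* were 83.1% identical. Among the members without an H2 symbol, only *Tapbp* had a shared window from the transcript start (6.67%, with the neighbouring gene *Zbtb22*), and from the start codon it had none.

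The first 120 nucleotides of 4 coding sequences are shown to let the 5′ coding sequences of the heavy chains be compared. Where the tags fall in these transcripts was not tested. All 4 genes lie on chromosome 17 of GRCm38, *H2-D1* and *H2-Q7* (chr17:35439155-35443773) on the plus strand and *H2-K1* and *H2-T23* on the minus strand, and the sequences are read from the spliced GENCODE transcripts, start codon first. Capitals mark bases that differ from *H2-K1*, or have no partner in it, in an alignment to *H2-K1*. These were 18 of 120 in *H2-D1* (15%), 28 in *H2-T23* (23.3%) and 23 in *H2-Q7* (19.2%).
H2-K1 coding start: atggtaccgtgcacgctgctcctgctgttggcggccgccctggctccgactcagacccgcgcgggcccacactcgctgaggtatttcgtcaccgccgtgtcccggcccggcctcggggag
H2-D1 coding start: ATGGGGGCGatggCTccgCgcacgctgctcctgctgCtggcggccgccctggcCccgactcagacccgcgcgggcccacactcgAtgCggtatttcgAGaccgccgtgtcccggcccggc
H2-T23 coding start: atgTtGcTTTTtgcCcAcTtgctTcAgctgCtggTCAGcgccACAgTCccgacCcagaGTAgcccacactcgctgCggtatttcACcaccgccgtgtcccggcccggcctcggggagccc
H2-Q7 coding start: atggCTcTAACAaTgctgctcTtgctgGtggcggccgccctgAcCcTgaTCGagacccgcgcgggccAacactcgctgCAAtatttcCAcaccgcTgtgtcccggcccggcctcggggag

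**Figure D2:**
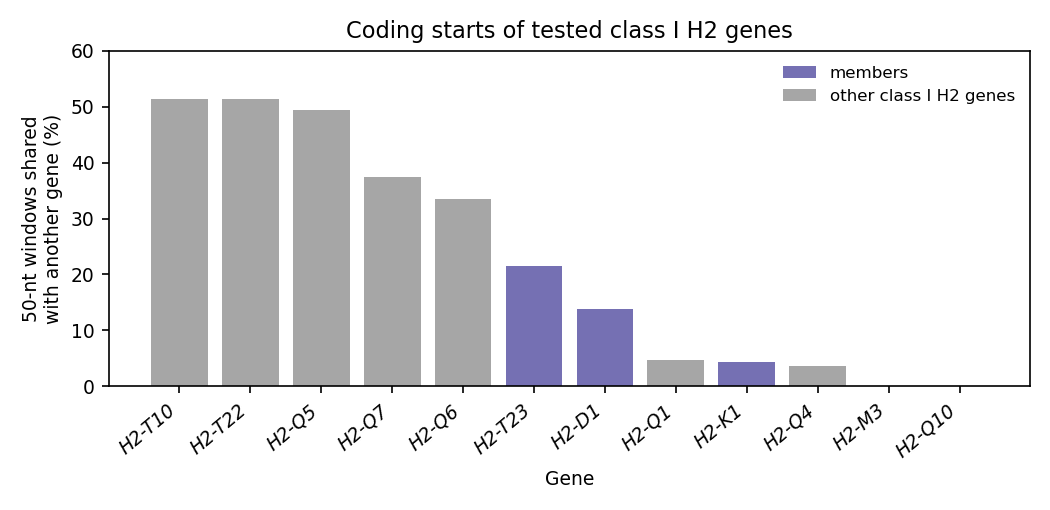
Each bar is the percent of 50-nucleotide windows in the first 300 nucleotides from the start codon that also occur in a transcript of another gene, for the tested class I H2 genes with a reference transcript, members in purple and others in grey. *H2-T10* and *H2-T22* reach 51.4%, *H2-T23*, *H2-D1* and *H2-K1* are at 21.5%, 13.9% and 4.38%, and *H2-M3* and *H2-Q10* are at 0.

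To depend less on which H2 gene a tag was assigned to, 12 class I H2 genes were added up and tested as a single feature, those with a window from the transcript start that occurs in another counted class I H2 gene. This sum does not hold *H2-T23*, *H2-Q4* and *H2-Q10*, whose transcripts contain 58, 36 and 41 of the transcript-start windows of *H2-K1*. It had a log2 fold change of 0.09 (95% interval -0.31 to 0.49; edgeR, adjusted p = 0.815). All 28 class I H2 symbols added up, these included, a choice made after seeing the data, gave 0.06 (95% interval -0.33 to 0.46; edgeR, adjusted p = 0.876). Neither sum was called, and both intervals lay within 2-fold.

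Other class I and class I-like heavy chains formed a list of 28 genes, of which 25 were in the count table and 16 were tested. Of these 16, 1 (*H2-Q10*) was called higher in EGFP-positive cells and 0 were called lower, against 3.44% and 6.37% of all tested genes. DESeq2 and edgeR's exact test each gave the same counts. At an unadjusted p under 0.05 there were 4 higher and 1 lower of the 16, against 12.2% and 14.5% of all tested genes. The median log2 fold change of the list was 0.33, against -0.01 over all tested genes. The most abundant gene of the list was *H2-Q4*, with 298, 359 and 333 tags in EGFP-negative and 186, 279 and 300 in EGFP-positive cells and a log2 fold change of -0.22 (edgeR, adjusted p = 0.475).

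*H2-Q10*, known as a secreted heavy chain of the liver, had 9, 9 and 3 tags in EGFP-negative cells and 32, 20 and 15 in EGFP-positive cells. The groups did not overlap, but the counts were low, and the gene passed the tag minimum through the EGFP-positive group alone. Its log2 fold change was 1.81 (SE 0.460; edgeR, adjusted p = 0.00941). It was not called without EGFP-negative replicate 3 (log2 fold change 1.38, adjusted p = 0.0528), and without any of the EGFP-positive libraries it fell under the tag minimum. Its transcripts contained 41 of the transcript-start windows of the far more abundant *H2-K1* (4.63%), so its count is uncertain, although none of its own windows in the first 300 nucleotides, from either start, occurred in another gene.

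*H2-Q9*, which with *H2-Q7* encodes Qa-2, had 4, 17 and 12 tags in EGFP-negative cells and 15, 23 and 25 in EGFP-positive cells, with a log2 fold change of 1.08 (edgeR, adjusted p = 0.0847). Blocked by replicate number it passed the threshold (1.12, adjusted p = 0.0271), as it did without EGFP-negative replicate 2 (1.56, adjusted p = 0.0423). *H2-T10* had 9, 5 and 12 tags against 8, 20 and 25, and a log2 fold change of 1.17 (edgeR, adjusted p = 0.0808). It also passed when blocked by replicate number (1.15, adjusted p = 0.0475) and without EGFP-positive replicate 1 (1.50, adjusted p = 0.0194). In both genes EGFP-positive replicate 1 lay among the EGFP-negative libraries.

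*H2-T10* and *H2-T22* shared 51.4% of their windows from the start codon with each other, so their separate counts are uncertain. *H2-T22* had 78, 84 and 91 tags in EGFP-negative and 57, 93 and 94 in EGFP-positive cells. For *H2-Q5*, *H2-Q6* and *H2-Q7* the shared windows from the start codon came to 49.4%, 33.5% and 37.5%, and their log2 fold changes were 0.55, 0.20 and 0.51. *H2-M3*, which presents formylated peptides, had no shared window and a log2 fold change of 0.53 (edgeR, adjusted p = 0.281).

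*H2-D4*, annotated as a pseudogene, had 23, 46 and 49 tags in EGFP-negative and 41, 83 and 72 in EGFP-positive cells. Its log2 fold change of 0.89 had an adjusted p of 0.0327 by edgeR but was under 2-fold, and it was called without EGFP-positive replicate 1 (1.12, adjusted p = 0.00841). Without each of the other 5 libraries in turn the adjusted p of *H2-D4* was over 0.05, at most 0.190 (0.68, without EGFP-positive replicate 2), and with DESeq2 it was 0.0538. *H2-Q8* had a log2 fold change of 0.79 (edgeR, adjusted p = 0.115) and was likewise called without EGFP-positive replicate 1 (1.05, adjusted p = 0.0338). *H2-Q1* had 43, 58 and 59 tags in EGFP-negative and 15, 35 and 39 in EGFP-positive cells. This group difference, a log2 fold change of -0.69, missed the threshold (edgeR, adjusted p = 0.110). Blocked by replicate number it was -0.72, under 2-fold and so not called (edgeR, adjusted p = 0.0293).

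*H2-L* is known to be absent from C57BL/6 mice. Tags were nevertheless counted under its symbol, 73, 90 and 91 in EGFP-negative and 49, 63 and 77 in EGFP-positive cells. *H2-L*, *H2-D4*, *H2-Q8*, *H2-Q9*, *H2-T9* and *H2-T18* had no transcript under these names in the reference transcripts. Their own shared windows were not counted, and windows that other genes share with them could be missed. The source of the tags under *H2-L* was not tested.

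**Figure D3:**
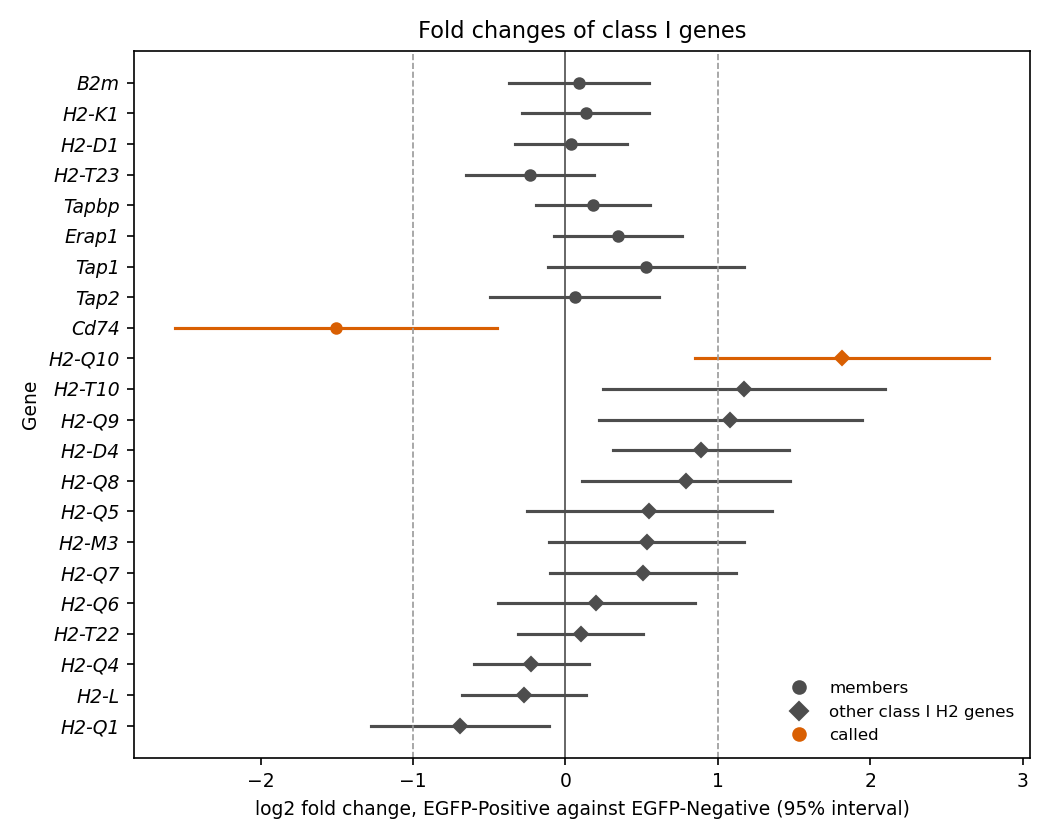
Points are log2 fold changes of EGFP-positive against EGFP-negative cells with 95% intervals, for the tested members (circles) and the other tested class I H2 symbols (diamonds), with called genes in orange and dashed lines at a 2-fold change. The intervals of *H2-K1*, *H2-D1*, *H2-T23* and *B2m* include 0 and lie within 2-fold, that of *Cd74* lies below 0 (-2.56 to -0.45), and *H2-Q10* has the highest estimate (1.81).

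The peptide loading genes came next. *Tap1* and *Tap2*, which together form the peptide transporter, lie close together on chromosome 17 (chr17:34187553-34197225 and chr17:34203527-34216321). *Tap1* had 25, 20 and 50 tags in EGFP-negative and 25, 47 and 50 in EGFP-positive cells. The highest tag counts were alike in both groups, and by tags only EGFP-positive replicate 2 stood apart from its EGFP-negative counterpart. In normalized CPM each EGFP-positive library was above the EGFP-negative one of the same number (ratios of 1.11, 2.53 and 1.16). The log2 fold change was 0.53 (95% interval -0.12 to 1.17; edgeR, adjusted p = 0.290), which leaves a difference of 2-fold possible in the upward direction. *Tap2* had 27, 47 and 39 tags against 27, 36 and 43, and a log2 fold change of 0.06 (95% interval -0.49 to 0.62; edgeR, adjusted p = 0.917).

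*Tapbp* (chr17:33915899-33929292), which encodes tapasin, had 121, 127 and 184 tags in EGFP-negative and 117, 145 and 175 in EGFP-positive cells. The groups overlapped in normalized CPM, at 115.5 to 151 and 124 to 167, although each EGFP-positive library was above the EGFP-negative one of the same number, and the log2 fold change was 0.18 (95% interval -0.19 to 0.55; edgeR, adjusted p = 0.572). *Erap1* (chr13:74639568-74693201) had 46, 49 and 60 tags against 54, 62 and 60. After normalization the EGFP-positive libraries, at 57.2 to 63.0 CPM, all lay above the EGFP-negative ones, at 43.9 to 49.3 CPM. The difference was small, with a log2 fold change of 0.35 (95% interval -0.07 to 0.76; edgeR, adjusted p = 0.289), and it was not called.

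Most chaperones that help load class I molecules also fold other glycoproteins of the endoplasmic reticulum, whereas the editor encoded by *Tapbpl* acts on class I molecules. All 10 genes of this list were tested. Among them edgeR's quasi-likelihood test called 0 in either direction, against 3.44% higher and 6.37% lower of all tested genes. At an unadjusted p under 0.05 there were 5 higher and 1 lower of the 10, against 12.2% and 14.5% of all tested genes, and DESeq2 and the exact test each called 0. The median log2 fold change was 0.40, against -0.01 over all tested genes. An adjusted p under 0.05 without the fold threshold held for 3 of them, against 15.5% of all tested genes. The 3 are named here after their values were seen. They were the lectin chaperone *Canx* (log2 fold change 0.67, adjusted p = 0.0110), the glucosidase subunit *Prkcsh* (0.96, adjusted p = 0.000668) and the folding sensor *Uggt1* (0.72, adjusted p = 0.0248).

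*Prkcsh* had 118, 99 and 99 tags in EGFP-negative and 178, 170 and 205 in EGFP-positive cells, and *Canx* had 445, 546 and 629 against 619, 753 and 944. The most abundant gene of the list, the general chaperone *Hspa5*, lay in the other direction, with 4763, 5361 and 6878 tags in EGFP-negative and 2565, 3925 and 4314 in EGFP-positive cells. Its log2 fold change of -0.50 was not called (edgeR, adjusted p = 0.0970). Blocked by replicate number it was -0.51, under 2-fold (edgeR, adjusted p = 0.00289). The editor gene *Tapbpl* had 17, 23 and 28 tags in EGFP-negative and 26, 39 and 37 in EGFP-positive cells. Its log2 fold change of 0.74 was not called (edgeR, adjusted p = 0.0796), although the groups did not overlap in normalized CPM. With the block it was again 0.74, under 2-fold (edgeR, adjusted p = 0.0475).

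Cytosolic peptidases, which trim or destroy peptides before transport, were 8 genes, since *Nrd1* was also listed under its synonym Nrdc, and all 8 were in the table and 7 were tested. The quasi-likelihood test of edgeR called 0, against 3.44% higher and 6.37% lower of all tested genes, and DESeq2 and the exact test called 0. At an unadjusted p under 0.05, 2 were higher and 1 lower, against 12.2% and 14.5% of all tested genes. Blocked by replicate number 1 gene, *Lap3*, was called higher (log2 fold change 1.01, adjusted p = 0.0241, against 0.97 and 0.0945 without the block; named after its values were seen). The most abundant, *Npepps*, had a log2 fold change of 0.07.

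*Nlrc5* (chr8:94434356-94527272), the class I transactivator, had 4, 7 and 9 tags in EGFP-negative and 0, 7 and 1 in EGFP-positive cells. It was not tested under the tag minimum. The counts of 0 and 1 are within the floor of 3 tags, while EGFP-positive replicate 2 held as many tags as EGFP-negative replicate 2, so a difference was not detectable at this depth.

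The transactivators of class I and class II promoters, a list of 11 that includes *Nlrc5*, had 8 tested genes. Of these, edgeR's quasi-likelihood test, DESeq2 and the exact test each called 0. The first of these tests called 3.44% of all tested genes higher and 6.37% lower. At an unadjusted p under 0.05, 0 were higher and 1 lower, against 12.2% and 14.5% of all tested genes. The most abundant was *Irf1*, an interferon-induced factor that binds class I promoters, with 460, 563 and 377 tags in EGFP-negative and 327, 257 and 274 in EGFP-positive cells. After normalization the groups overlapped, with EGFP-positive replicate 1 above EGFP-negative replicate 3, and the log2 fold change of -0.56 missed the threshold (edgeR, adjusted p = 0.0669). Each EGFP-positive library was below the EGFP-negative one of the same number. Blocked by replicate number the log2 fold change of *Irf1* was -0.54, under 2-fold and so not called (edgeR, adjusted p = 0.00659).

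Among interferon receptors and their signal transducers, all 12 tested, 0 were called higher and 1 lower by edgeR's quasi-likelihood test, DESeq2 and the exact test alike, where 3.44% and 6.37% of all tested genes were called higher and lower by the first of these. At an unadjusted p under 0.05 there were 1 higher and 3 lower, against 12.2% and 14.5% of all tested genes, and the median log2 fold change was 0.15. The gene called lower was *Socs1*, an inhibitor of JAK kinases that interferon-γ induces. It had 30, 31 and 35 tags in EGFP-negative and 5, 11 and 11 in EGFP-positive cells, and its level fell by 1.66 on the log2 scale (SE 0.337; edgeR, adjusted p = 0.00170). The groups were far apart, and the call held without any 1 of the 6 libraries.

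*Irf9* and *Stat2*, parts of the factor that answers type I interferon, are named here after their values were seen. *Irf9* had 47, 37 and 58 tags against 17, 22 and 25, and a log2 fold change of -0.98 (edgeR, adjusted p = 0.0128). *Stat2* had 45, 44 and 67 against 26, 23 and 33, and a log2 fold change of -0.76 (edgeR, adjusted p = 0.0404). Both were under the 2-fold threshold and so were not called. The most abundant gene of this list, the kinase *Jak1*, had a log2 fold change of 0.14 (edgeR, adjusted p = 0.660).

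The immunoproteasome, whose subunits are induced by interferon-γ and make peptides suited to class I molecules, had 5 of 5 genes tested. The counts called by edgeR's quasi-likelihood test, DESeq2 and the exact test were 0. The first of these tests called 3.44% of all tested genes higher and 6.37% lower. At an unadjusted p under 0.05, 1 was higher and 0 lower (12.2% and 14.5% of all tested genes), and the median log2 fold change was 0.08. *Psmb8*, its most abundant gene, had 75, 78 and 118 tags in EGFP-negative and 58, 146 and 158 in EGFP-positive cells (log2 fold change 0.57; edgeR, adjusted p = 0.155).

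Values were also compared by replicate number, a comparison chosen after seeing the data. Normalized CPM was lowest in replicate 1 of both groups for 6 of the 9 tested members, namely *H2-K1*, *H2-D1*, *B2m*, *Tap2*, *Tapbp* and *Cd74*, and not for *H2-T23*, *Tap1* and *Erap1*. The same held for 10 of the 16 tested class I H2 symbols (62.5%) and for 1257 of all 9334 tested genes (13.5%). The H2 symbols are not independent cases, since tags can be shared among them, and *H2-K1* and *H2-D1* are in both counts. When the replicate number was tested as a factor beside the group, 183 of all tested genes had an adjusted p under 0.05 by edgeR (1.96%), among them 1 of the 9 members, *B2m* (adjusted p = 0.0220). For *H2-K1* the adjusted p of the replicate number was 0.0736, and for the other 7 members it ran from 0.426 (*Tap1*) to 0.983 (*Erap1*). Among the tested class I H2 symbols 1, *H2-Q7*, also differed by replicate number (edgeR, adjusted p = 0.0389). *H2-Q7* had 23, 61 and 68 tags in EGFP-negative replicates 1, 2 and 3 and 42, 72 and 79 in the EGFP-positive ones. What the replicate number stands for, such as a mouse or a day, is not given in the sources used here, so these cannot be told apart.

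Promoters of 7 of the 10 genes were found in the RefSeq promoter table for GRCm38.p6, and *Tap2*, *Nlrc5* and *Cd74* were not among them. The promoters of *H2-K1*, *H2-D1* and *B2m* are shown because replicate 1 was lowest in both groups for each of these abundant genes. Each window runs from 250 bases before to 50 bases after the annotated start and is read 5′ to 3′ on the strand of the gene. Capitals mark AANNGAAA, a core of elements bound by interferon regulatory factors, TGACG, the core of the X2 box, and CCAAT, the core of the Y box, each on either strand. In all 32851 promoters of this table, 23.9% held AANNGAAA, 20.8% TGACG and 37.4% CCAAT, and 1.59% held all of them. Of the 7 promoters, 3 held all of them, those printed here, and in none of the 7 did matches overlap. The promoters of *H2-K1* and *H2-D1* share long stretches of sequence, so their matches are not independent. For *Tapbp*, also lowest in replicate 1 of both groups, the promoter held 2 matches of CCAAT and 0 of AANNGAAA and TGACG. Whether these letters go with the replicate pattern was not tested. A match is a description of letters and not a bound site. The windows are chr17:34000298-34000597 on the minus strand for *H2-K1*, chr17:35262844-35263143 on the plus strand for *H2-D1* and chr2:122147437-122147736 on the plus strand for *B2m*.
H2-K1 promoter: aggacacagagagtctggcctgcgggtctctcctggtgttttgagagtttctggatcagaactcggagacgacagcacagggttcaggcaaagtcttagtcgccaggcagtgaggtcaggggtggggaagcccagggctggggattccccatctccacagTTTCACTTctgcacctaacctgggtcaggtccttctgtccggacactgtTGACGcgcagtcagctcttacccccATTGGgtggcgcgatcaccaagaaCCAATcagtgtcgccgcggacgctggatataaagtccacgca
H2-D1 promoter: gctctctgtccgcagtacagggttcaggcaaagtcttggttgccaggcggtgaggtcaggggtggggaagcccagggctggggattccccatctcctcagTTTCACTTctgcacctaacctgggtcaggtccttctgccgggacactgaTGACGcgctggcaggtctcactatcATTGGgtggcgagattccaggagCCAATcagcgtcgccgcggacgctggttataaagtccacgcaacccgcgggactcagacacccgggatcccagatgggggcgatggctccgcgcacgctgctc
B2m promoter: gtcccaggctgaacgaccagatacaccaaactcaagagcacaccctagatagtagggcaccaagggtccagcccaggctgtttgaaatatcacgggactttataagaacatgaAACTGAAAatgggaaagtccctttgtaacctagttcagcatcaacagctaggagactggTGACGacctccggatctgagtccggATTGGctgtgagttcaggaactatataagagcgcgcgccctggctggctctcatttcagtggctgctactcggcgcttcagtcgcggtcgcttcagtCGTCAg

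*Cd74*, the class II invariant chain, was the one member called. It had 12, 24 and 15 tags in EGFP-negative and 2, 4 and 10 in EGFP-positive cells, which is 11.4, 22.3 and 12.8 CPM against 1.91, 3.91 and 9.53 CPM. Each EGFP-positive library lay below each EGFP-negative one, although EGFP-positive replicate 3 came close, and EGFP-positive replicate 1 was within the floor of 3 tags. The level fell by 1.50 on the log2 scale (95% interval -2.56 to -0.45; edgeR, adjusted p = 0.0468). The call rested on few tags, 51 in the EGFP-negative and 16 in the EGFP-positive group. It was lost without EGFP-negative replicate 1 (adjusted p = 0.0535) or 2 (adjusted p = 0.237), without EGFP-positive replicate 1 (adjusted p = 0.170) or 2 (adjusted p = 0.142), and with DESeq2 (adjusted p = 0.0977).

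Most class II molecules and their loading genes had few tags as well. Of 12 listed genes 10 were in the table and 2, *Ifi30* and *H2-Ab1*, were tested. Of these edgeR's quasi-likelihood test, DESeq2 and the exact test called 0. The first of these tests called 3.44% of all tested genes higher and 6.37% lower. An unadjusted p under 0.05 held for 0 of the 2, against 12.2% higher and 14.5% lower of all tested genes. Summed over the list the level was 57.7, 65.9 and 53.9 CPM in EGFP-negative and 47.8, 46.0 and 43.9 CPM in EGFP-positive cells. Its most abundant gene was *Ifi30*, a reductase of the endosome, with 36, 26 and 13 tags against 27, 24 and 23. Of the class II chains, *H2-Ab1* had 11, 13 and 14 tags against 11, 6 and 11. *H2-Aa* had 4, 6 and 11 tags against 0, 1 and 1, and *H2-Eb1* had 1, 5 and 6 against 0, 0 and 3. These were too few to be tested for *H2-Aa* and *H2-Eb1*, and the 3 chains are named after their values were seen. The class II transactivator *Ciita* was at or under the floor in all 6 libraries.

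*Cd74* is abundant in blood-derived antigen-presenting cells, which the sort removed by CD45. The 7 leukocyte markers were all in the table and 0 were tested, with sums of 5, 32 and 24 tags in EGFP-negative and 6, 6 and 7 in EGFP-positive cells. The most abundant of them was *Laptm5*, with 2, 10 and 9 tags against 2, 1 and 3, and *Ptprc*, which encodes CD45, had 1, 2 and 7 against 0, 3 and 0. Thus the sums of EGFP-negative replicates 2 and 3 were above the other 4 libraries. Of 14 macrophage and dendritic cell markers 13 were in the table and 0 were tested, and their sums, 29, 46 and 30 tags against 35, 27 and 22, overlapped between the groups. *Zbtb46* was the most abundant of these, and *Csf1r*, *C1qc*, *Itgam*, *Itgax*, *Mrc1*, *Flt3* and *Xcr1* were at or under the floor in all libraries. The part of these cells in the *Cd74* result was not tested.

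B and T cell markers summed to 152, 168 and 14 tags in EGFP-negative and 59, 248 and 72 in EGFP-positive cells, and *Jchain*, a plasma cell gene, made up 94.8% of them. Of the other listed lymphocyte markers 8, among them *Cd79a* and *Cd3e*, were at or under the floor in all libraries. Neutrophil markers summed to 24, 21 and 28 tags against 44, 23 and 35, most of them from *Cxcr2*, which was not called. Erythroid markers summed to 95, 0 and 372 tags in EGFP-negative and 18, 2 and 20 in EGFP-positive cells, led by *Hbb-bs*, and 0 were tested. *Hbb-bs* had 34, 0 and 141 tags against 5, 0 and 9. With at least 1 tag in 1 library as the minimum it was called lower (-3.36, edgeR, adjusted p = 1.09e-17). It was also called lower with at least 10 tags over all 6 libraries together (-3.37, edgeR, adjusted p = 0.00915).

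Markers of stromal cell types that the sort retained differed between the groups. All 9 smooth muscle and pericyte markers were called lower in EGFP-positive cells, against 6.37% of all tested genes, and *Cnn1* and *Notch3* passed the tag minimum through the EGFP-negative group alone. Their sum was 4035, 4148 and 4937 CPM in EGFP-negative and 265.6, 310 and 491 CPM in EGFP-positive cells, and *Rgs5* was the most abundant. All 9 fibroblast markers were tested, and 2 of them, *Col3a1* (log2 fold change 1.04) and *Pdpn* (1.06), were called higher, against 3.44% of all tested genes. Both were under 2-fold, and so not called, with scaling by library size only (*Col3a1* 0.96, *Pdpn* 0.97) and without EGFP-negative replicate 1 (*Col3a1* 0.83, *Pdpn* 0.94), as was *Pdpn* without EGFP-positive replicate 1 (0.97). Under 2-fold, an adjusted p below 0.05 by edgeR held also for *Thy1* (0.88, adjusted p = 0.00832), *Dcn* (0.67, adjusted p = 0.0462) and, in the other direction, *Lum* (-0.64, adjusted p = 0.0378). For *Dcn* it was over 0.05 without any single library other than EGFP-positive replicate 3, at most 0.264 (edgeR, without EGFP-negative replicate 2). Without EGFP-positive replicate 1 the log2 fold change of *Dcn* was 0.39. *Vim* was at -0.27 (edgeR, adjusted p = 0.384), and *Thy1*, *Lum* and *Vim* are named after their values were seen. *Dcn* was the most abundant fibroblast marker, and the list summed to 21916, 21763 and 25647 CPM in EGFP-negative and 38069, 32698 and 30299.9 CPM in EGFP-positive cells. The part of these cell types in the class I values was not tested.

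Listed markers of endothelial and epithelial cells, which the sort removed by CD31 and EpCAM, had few tags. Of 8 endothelial markers 7 were in the table, with summed tags of 45, 30 and 46 in EGFP-negative and 17, 9 and 8 in EGFP-positive cells, 82.6% of them from *Tek*. *Tek* was called lower (log2 fold change -1.59; edgeR, adjusted p = 0.00850) but not without EGFP-positive replicate 2 (adjusted p = 0.0511), and *Pecam1*, which encodes CD31, had 0, 1 and 0 against 0, 0 and 0. Of 11 epithelial markers 9 were in the table, with sums of 35, 28 and 69 tags against 9, 13 and 23. The one tested, *Lgals4*, was called lower (-1.26; edgeR, adjusted p = 0.0153), but not without EGFP-negative replicate 3 (adjusted p = 0.0616), EGFP-positive replicate 1 (adjusted p = 0.0740) or EGFP-positive replicate 2 (adjusted p = 0.0654). *Epcam* had 1, 0 and 0 tags against 0, 0 and 1. The part of either cell type in the results was not tested.

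Levels of the 10 genes are set in order by CPM per kilobase of transcript and given as the median and range over the 6 libraries. *B2m* was highest, at 2487 CPM per kilobase (1409 to 3099), followed by *H2-K1* at 629 (400.7 to 739) and *H2-D1* at 476 (340 to 519). *B2m* lay above every other member in all libraries, and *H2-K1* and *H2-D1* overlapped each other. *H2-T23*, at 132, and *Tapbp*, at 44.8, each overlapped neither neighbour. Over both groups *Tap1* (11.3), *Tap2* (9.96), *Erap1* (9.12) and *Cd74* (7.41) followed, each overlapping the next, and *Nlrc5* was lowest at 0.740 CPM per kilobase, below the range of *Cd74*. The order of *Tap1*, *Tap2*, *Erap1* and *Cd74* differed between the groups. In EGFP-negative cells the medians were 9.69 for *Tap2*, 9.09 for *Cd74*, 8.05 for *Erap1* and 8.01 for *Tap1*, and in EGFP-positive cells 15.6 for *Tap1*, 10.23 for *Tap2*, 10.13 for *Erap1* and 2.77 for *Cd74*. A tag counts a 5′ end, so the per-kilobase scale divides by a length that tag counts may not depend on. By CPM alone, without length, *B2m*, *H2-K1*, *H2-D1*, *H2-T23* and *Tapbp* kept the first 5 places, and the next were *Erap1* (median 51.4 CPM), *Tap2* (34.3 CPM) and *Tap1* (33.3 CPM).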

How the data were processed

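The 6 libraries were made by 5′Tag-seq. The authors ran cutadapt (1.18), aligned the trimmed reads to the mm10 RNAs of RefSeq using Bowtie2 (2.2.5) and deposited raw tag counts per gene symbol, which were used as deposited. How tags matching several genes were counted is not given in the sources used here. Library totals ran from 1022851 to 1169817 tags. Counts were scaled by TMM and compared with edgeR (4.0.16; quasi-likelihood test, Benjamini-Hochberg adjustment over all 9334 tested genes) in R (4.3.3), after a minimum of 10 tags in at least 3 of 6 libraries. The methods of the study name a threshold of 10 tags, worded as excluding genes at or above it, which was read here as a minimum, and the number of libraries was chosen here. Intervals are 95% intervals of the log2 fold change. The procedure was tested on simulated data.

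Replicate numbers come from the labels. Over the 5063 genes averaging at least 30 tags, deviations from the group means of same-numbered libraries correlated at r = 0.230, 0.185 and 0.264 across genes, which are not independent replicates, so the numbers were taken to pair the libraries. The main fit did not use this pairing, and only the replicate block did.

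The genes named are the 10 members, called genes and the most abundant gene of each list, tested class I H2 symbols, *Il11* and defining cell type markers. Members and lists were chosen with earlier results of these data known. No test was made over a list, and some listed genes are not reported here. Alternatives were other scalings, DESeq2 (1.42.0), edgeR's exact test, other tag minimums, the replicate block, leaving out each library and summed H2 genes. The exact test was run with an iterative form of TMM, so it changed the test and the scaling together. The sum of all class I H2 symbols, the test of the replicate number and the windows from the start codon were chosen after seeing the data. Promoters came from RefSeq (GRCm38.p6), transcripts from GENCODE M21.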

Additional observations from a re-analysis of the deposited data

How the results depend on the processing

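Over 17 settings the 9 tested members had 141 alternative values, of which 135 kept their side of the threshold and 6, all of *Cd74*, lost the call. The log2 fold change of *Cd74* was -1.53 with DESeq2 (adjusted p = 0.0977) and -1.48 with at least 10 tags over all 6 libraries together (edgeR, adjusted p = 0.0527). Without single libraries it ran from -2.26 to -1.14. Its adjusted p over all these settings ran from 0.00970 to 0.237. The signs of the small estimates of *H2-K1*, *H2-D1*, *B2m* and *Tap2* were negative in some settings, with lowest values of -0.02, -0.08, -0.13 and -0.12, and none of these was called. Of 570 values of 39 other named genes 550 kept their side, 10 lost and 10 gained a call, and 0 were called in the other direction.

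The count of genes called lower ran from 341 to 579 without single libraries, and by adjusted p alone 638 genes were higher and 812 lower. In the fit blocked by replicate number (the replicate block) 337 genes were called higher and 648 lower, and among the members the block changed no call. Outside the members it changed the calls of *H2-Q9*, *H2-T10* and *Lap3* among the genes named in the text. *Nlrc5* was testable only under the looser tag minimums, with log2 fold changes of -1.08 and -1.10 and no call. *H2-Q10* could not be tested without an EGFP-positive library. The causes were not tested. The tags of *Nlrc5* were too few for the tag minimum, and EGFP-positive replicate 1 held 2 tags of *Cd74*.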
